A study of Homo sapiens with 48 samples.

Results

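The 6 CXC chemokine genes followed here encode neutrophil attractants, and their RNA was measured in a human fibroblast line treated with TGFβ plus IL-1β: CXCL1, CXCL2, CXCL3, CXCL5, CXCL6 and CXCL8. The genes were taken by name, 5 under their current symbol and CXCL8 under its older symbol IL8, and they are 6 of the 29744 genes in the expression table. The study profiled RNA from 48 libraries to ask what loss or gain of the transcription factor GLIS3 does to the fibroblast response, in an immortalized human skin fibroblast line that carries a fluorescent reporter of IL11 and was derived from sorted single-cell clones. In one arm the cells expressed Cas9 and received a guide against GLIS3 (H47_KO) or a non-targeting guide (H47_Ctrl). In the other arm the cells expressed dCas9-VP64, a Cas9 that does not cut and is fused to a transcriptional activator, and received a guide that raises GLIS3 (VP64_A) or a non-targeting guide (VP64_Ctrl). All 4 groups were drug-selected populations that had taken up a lentiviral guide, so H47_KO is a mixture of edited cells and not one edited clone. Each group gave 3 libraries for each of 0, 6, 12 and 24 h of TGFβ and IL-1β at 10 ng/ml each. The study's methods describe a reverse time course with RNA taken after 24 h, so the times differ in when the cytokines were added. The 0 h libraries are the unstimulated state and every later library carries both cytokines. The study's methods describe its cell-culture work in general as having independent biological replicates, but the labels do not say so of these libraries. If the 3 libraries of a group did not come from separate cultures, p-values measure only a spread that may be technical.

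CXC chemokines of this family carry a Glu-Leu-Arg motif just before the CXC motif and bind the receptors CXCR1 and CXCR2, through which neutrophils are drawn from blood into tissue. CXCL8 (interleukin-8) and CXCL6 bind both receptors well, whereas CXCL1, CXCL2, CXCL3 (the growth-regulated oncogenes GROα, GROβ and GROγ) and CXCL5 act mainly through CXCR2. In fibroblasts and other stromal cells the genes are known targets of IL-1, which acts through the NF-kB and p38 pathways, and their transcripts are short-lived because of AU-rich elements that decay factors recognize.

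The 6 genes lie together on chromosome 4, within 358678 bases of GRCh38 between positions 73740519 and 74099196, and each canonical transcript has 4 exons. CXCL8 (73740519 to 73743716), CXCL6 (73836640 to 73849064) and CXCL1 (73869393 to 73871308) are on the plus strand, and CXCL5 (73995642 to 73998677), CXCL3 (74036589 to 74038807) and CXCL2 (74097040 to 74099196) on the minus strand (gene bounds from GENCODE v44). The sequences before their start sites are shown because the 6 genes rose together after stimulation. Each line gives 150 bases of the RefSeq GRCh38.p14 promoter, 5′ to 3′ on the gene's own strand and ending 1 base before the RefSeq start, which for CXCL8, CXCL6, CXCL3 and, by 1 base, CXCL2 lies inside the GENCODE bounds, with the 9 bases that all 6 share, GGAATTTCC, in capitals. The windows are chr4:73740419-73740568 on the plus strand for CXCL8, chr4:73836528-73836677 on the plus strand for CXCL6, chr4:73869243-73869392 on the plus strand for CXCL1, chr4:73998678-73998827 on the minus strand for CXCL5, chr4:74038690-74038839 on the minus strand for CXCL3 and chr4:74099196-74099345 on the minus strand for CXCL2.
CXCL8: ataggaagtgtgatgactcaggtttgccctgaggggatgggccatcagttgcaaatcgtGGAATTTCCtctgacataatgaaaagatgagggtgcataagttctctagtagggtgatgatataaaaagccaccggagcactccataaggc
CXCL6: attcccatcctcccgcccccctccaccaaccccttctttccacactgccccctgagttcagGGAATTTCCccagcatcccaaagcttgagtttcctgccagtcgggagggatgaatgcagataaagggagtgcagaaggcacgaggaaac
CXCL1: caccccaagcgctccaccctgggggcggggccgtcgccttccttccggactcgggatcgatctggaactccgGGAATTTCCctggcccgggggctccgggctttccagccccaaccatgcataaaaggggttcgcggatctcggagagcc
CXCL5: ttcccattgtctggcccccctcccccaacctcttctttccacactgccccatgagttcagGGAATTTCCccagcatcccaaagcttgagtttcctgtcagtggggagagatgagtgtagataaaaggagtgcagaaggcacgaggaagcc
CXCL3: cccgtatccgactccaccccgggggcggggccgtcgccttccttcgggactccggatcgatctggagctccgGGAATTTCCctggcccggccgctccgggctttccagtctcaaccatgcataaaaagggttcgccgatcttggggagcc
CXCL2: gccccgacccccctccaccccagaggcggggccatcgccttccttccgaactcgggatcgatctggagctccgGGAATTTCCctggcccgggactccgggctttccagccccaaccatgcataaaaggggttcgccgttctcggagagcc

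The shared 9 bases end 83 bases before the start of CXCL8, 81 before CXCL6, 70 before CXCL1, 82 before CXCL5, 70 before CXCL3 and 69 before CXCL2. This run was picked after the matches were seen, and it occurs in 0.461% of 35116 RefSeq promoters of 300 bases (250 before to 50 after the start, both strands). The 6 windows are not independent of each other. Over the 300 bases CXCL1, CXCL2 and CXCL3 were 77 to 84.7% identical and CXCL5 and CXCL6 83.7%, while CXCL8 shared 48 to 50.3% with the others. The NF-kB consensus was searched as GGGRNNYYCC (R is A or G, Y is C or T, N is any base), and 11.3% of all promoters hold at least 1 match to it. In 5 of the 6 genes, all but CXCL8, a G precedes the shared 9 bases and the same run also matches that consensus. It does so on both strands because the site is nearly symmetric. In CXCL8 a T precedes the 9 bases, so the strict pattern is not met. In the same 300-base windows the AP-1 motif TGANTCA and the TATA box TATAAA were found in CXCL8 alone among the 6 (in 7.71% and 11.5% of all promoters), and the C/EBP motif TTNNGNAA in CXCL2 alone (36.8%). The GLIS core TGGGGGGT was in none of the 6 windows (1.47% of all promoters). These letter matches are descriptions of the windows and not measurements of binding, and the lack of a match does not show that a factor has no site there.

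The members fell into 3 types by sequence. CXCL1, CXCL2 and CXCL3 were 90.7 to 94.4% identical in their coding sequence, CXCL5 and CXCL6 were 87.4% identical, and CXCL8 shared 50 to 56.1% with the others. In their 3′ untranslated regions the pentamer ATTTA, the core of an AU-rich element, occurred 6 times in CXCL1, 10 in CXCL2, 7 in CXCL3, 11 in CXCL5, 6 in CXCL6 and 9 in CXCL8, against a median of 2 over 19076 protein-coding transcripts. Counts at least as high were held by 11.1% (CXCL5) to 24.8% (CXCL1 and CXCL6) of those transcripts. The counts are not adjusted for the length of the region, which ran from 673 bases in CXCL3 to 1995 in CXCL5. Because the counts are estimates by Salmon, which divides a read that matches several transcripts among them, the split between near-identical copies is uncertain. Estimated counts were not whole (more than 1e-06 from a whole number) in 36 of the 46 libraries where CXCL1 was above 0, in 36 of 43 for CXCL2 and in 35 of 46 for CXCL3, but in 1 of 38 for CXCL5, 0 of 36 for CXCL6 and 0 of 48 for CXCL8. Values of CXCL1, CXCL2 and CXCL3 taken one by one are therefore less certain than those of the other 3.

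Several checks preceded the comparisons. Library totals ran from 2321995 to 10660997 estimated counts, with a median of 5139640. In the CRISPRa arm the GEO titles and descriptions name opposite groups, and the groups here follow the descriptions, which are also the column names of the count table. GLIS3 measured 5.59 ± 0.82 TPM (a transcript abundance scaled for length and library, SD, n = 3) in VP64_A at 0 h and 0.808 ± 0.504 in VP64_Ctrl (log2 fold change 3.61, SE 0.24, adjusted p = 1.3e-12 in edgeR's quasi-likelihood test), so the activated gene is high in the libraries described as VP64_A. By the titles every direction given below for VP64_A against VP64_Ctrl would turn. In H47_KO at 0 h GLIS3 measured 0.0683, 0.0303 and 0.132 TPM against 0.447, 0.325 and 0.509 in H47_Ctrl, a log2 fold change of -2.55 (SE 0.56, adjusted p = 0.035), while at 6, 12 and 24 h the adjusted p was 0.093, 0.51 and 0.38, on no more than 21 counts in any H47_KO library. IL11, the gene behind the reporter, measured 162 ± 2.5 TPM in VP64_A and 24.5 ± 3.9 in VP64_Ctrl at 6 h (SD, n = 3).

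Markers of other cells were nearly absent. All 9 fibroblast markers averaged above 1 TPM, led by VIM at 8824 to 23817 TPM, and their sum ran from 11364 to 32100. The 8 leukocyte and myeloid markers summed to at most 3.42 TPM in any library, led by CSF1R at 0 to 2.46 TPM, and LYZ, S100A8, S100A9 and CSF3R had 0 counts in all 48. The 4 endothelial markers summed to at most 0.615 TPM, with KDR at 0 in all 48. Of 5 epithelial markers 2 averaged above 1 TPM, their sum ran from 361.9 to 8248 TPM and nearly all of it was the keratin KRT18, which fibroblasts in culture also express, while EPCAM was at 0 in all 48. KRT18 ran from 355 to 8226 TPM and fell from 6 to 24 h by 1.82 to 2.64 on the log2 scale in the 4 groups, beside the fall of the chemokines described below. It was higher in VP64_A than in VP64_Ctrl at 6 h (log2 fold change 1.40, SE 0.26, adjusted p = 0.00056). Before stimulation it was already higher there, at 6548, 8226 and 6892 TPM against 2574, 2731 and 2237 at 0 h. Its part in the chemokine results was not tested.

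In all 5 libraries stood apart by their scaling factor between libraries (TMM factor above 1.3, a limit set after seeing the data): 1 of H47_Ctrl at 6 h, 1 of H47_KO at 0 h, 1 of H47_KO at 24 h and 2 of VP64_Ctrl at 0 h. Without them every member was still called higher than at 0 h in each group, and other values that moved, among them the CXCL8 response in H47_KO, are given beside the results.

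Unstimulated fibroblasts had almost none of these transcripts. In the 3 H47_Ctrl libraries at 0 h CXCL8 gave 106, 20 and 30 counts, or 15.7, 3.34 and 8.55 TPM. CXCL1 gave 4, 3 and 0 counts there, CXCL2 gave 1, 3 and 0, and CXCL3 gave 4, 2 and 3. CXCL5 had 0 counts in all 6 control libraries at 0 h and CXCL6 had 0 in all 12 libraries at 0 h. CXCL1 reached 7, 5 and 14 counts in H47_KO. CXCL8 had the most counts before stimulation, and 1 library, H47_KO replicate 3, stood above the other 11 at 54.6 TPM (282 counts) and was one of those that stood apart.

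After 6 h of TGFβ and IL-1β CXCL8 was among the most abundant transcripts, CXCL1, CXCL2 and CXCL3 ran from 243 to 2433 TPM in H47_Ctrl, and CXCL5 and CXCL6 stayed under 20 TPM in every library. CXCL8 reached 28395, 34326 and 30171 TPM in H47_Ctrl and held rank 1 or 2 among all genes in every H47_Ctrl, H47_KO and VP64_Ctrl library at 6 h, and ranks 2 to 6 in VP64_A. The 6 members together took 3.45 ± 0.34% of all TPM in H47_Ctrl, 3.80 ± 0.27% in H47_KO, 4.26 ± 0.39% in VP64_Ctrl and 2.48 ± 0.39% in VP64_A at 6 h (SD, n = 3). CXCL8 alone made up 79.7 to 96.9% of that sum in every stimulated library.

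The order of levels in H47_Ctrl at 6 h, compared per length as TPM, was CXCL8, CXCL1, CXCL3, CXCL2, CXCL6 and CXCL5. CXCL1 measured 1936, 2433 and 2255 TPM, CXCL3 measured 870.8, 1165 and 1222, and CXCL2 measured 243, 249 and 315. CXCL6 measured 3.88, 1.04 and 1.5 TPM on 19, 6 and 7 counts, and CXCL5 measured 1.03, 0.441 and 0.541 on 8, 4 and 4 counts. No library of one gene reached the range of its neighbour down to CXCL2, whereas the ranges of the lowest 2 neighbours nearly met, at 1.04 TPM in the lowest CXCL6 library and 1.03 in the highest CXCL5 library. In VP64_Ctrl at 6 h CXCL3 stood above CXCL1 in every library, at 3026, 3364 and 4124 against 1962, 2804 and 3452 TPM, although the ranges over the 3 libraries overlapped.

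**Figure D1:**
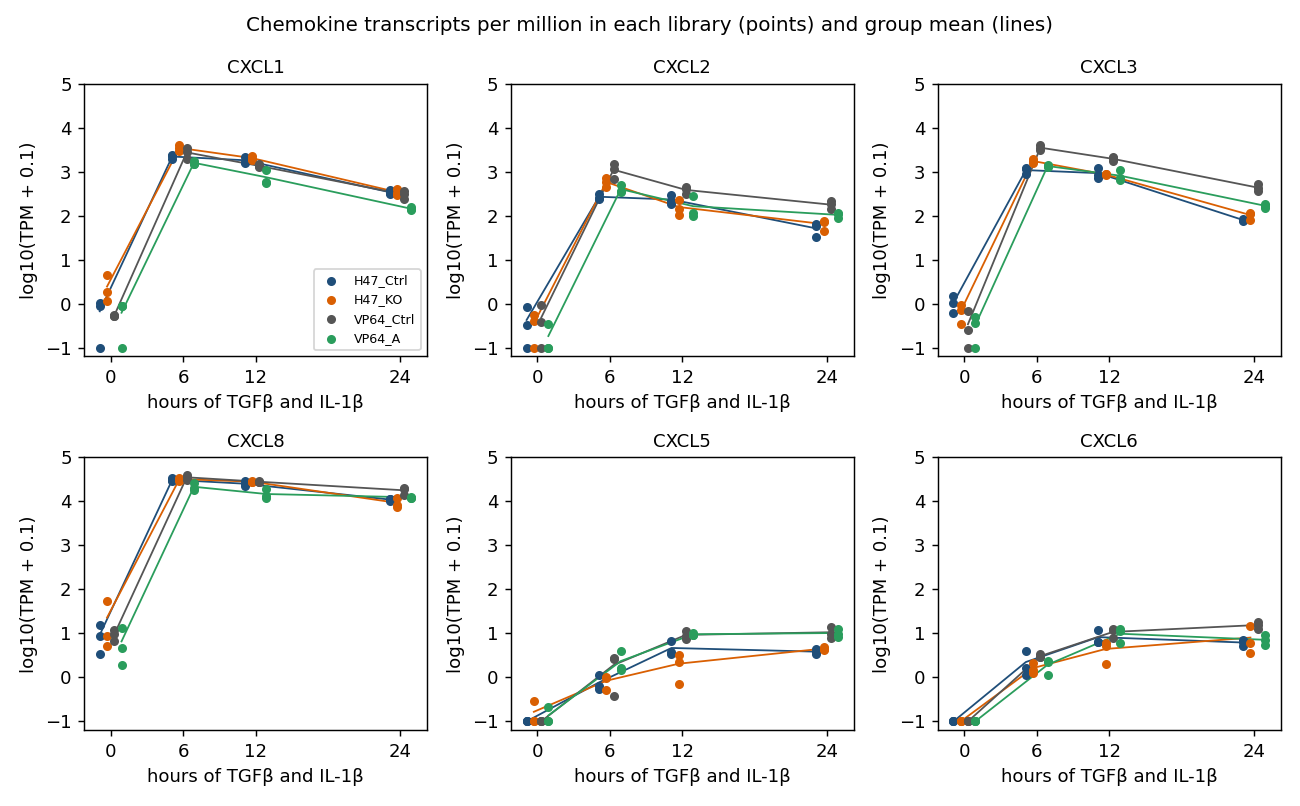
Level of each of the 6 chemokines as log10(TPM + 0.1) against hours of TGFβ and IL-1β, a panel per gene, with a point for each of the 48 libraries (groups set slightly apart along the time axis) and a line through the mean of the 3 libraries of each group. CXCL1, CXCL2, CXCL3 and CXCL8 are highest at 6 or 12 h and lower at 24 h than at 6 h, whereas CXCL5 and CXCL6 are higher at 24 h than at 6 h and stay under 20 TPM throughout.

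As ratios of summed counts scaled to library size, the rise in H47_Ctrl from 0 to 6 h was 3410-fold for CXCL8 (95% counting interval 2915 to 4015), 3448-fold for CXCL1 (1673 to 8576), 1300-fold for CXCL3 (684 to 2843) and 753-fold for CXCL2 (294 to 2767). The intervals cover counting error only, and the 3 genes with wide ones rest on 4 to 9 counts at 0 h. Single libraries at 0 h moved these ratios: without H47_Ctrl replicate 1 that of CXCL8 was 6090-fold, and without replicate 2 that of CXCL2 was 1932-fold on 1 count. For genes at 0 before stimulation the rise is a lower bound, set against 3 counts over the group. CXCL6 was at least 11.5-fold higher at 6 h, 46.7-fold at 12 h and 37.3-fold at 24 h, and CXCL5 at least 5.75-fold, 41.9-fold and 36.8-fold. In VP64_Ctrl at 6 h the ratio was 15545-fold for CXCL3 (6660 to 47877, on 5 counts at 0 h) and 5178-fold for CXCL8 (4584 to 5871), and in VP64_A it was 6337-fold (2474 to 23262, on 4 counts) and 3220-fold (2806 to 3713). Without VP64_A replicate 1 at 0 h the VP64_A ratios were 13846-fold for CXCL3, on 1 count, and 7934-fold for CXCL8. In VP64_Ctrl the CXCL3 ratio was 7604-fold without the libraries that stood apart and 47307-fold, on 1 count, without replicate 2.

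All 6 members were called higher than at 0 h at 6, 12 and 24 h in each of the 4 groups (edgeR quasi-likelihood test, p adjusted by Benjamini-Hochberg over every gene in the fit, threshold 0.05), with the weakest call at adjusted p = 0.0038 for CXCL5 in H47_KO at 6 h. The 6 passed the filter on low counts through their stimulated libraries, so this count is a description. The share of all tested genes called higher at 6, 12 and 24 h was 10.3%, 11.3% and 6.53% in H47_Ctrl, 13.2%, 14.4% and 9.07% in H47_KO, 16.2%, 15.3% and 10.4% in VP64_Ctrl, and 11.4%, 12.6% and 9% in VP64_A.

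From 6 to 24 h the 6 genes parted. CXCL1, CXCL2, CXCL3 and CXCL8 fell, whereas CXCL5 and CXCL6 rose. In H47_Ctrl CXCL3 went from 870.8, 1165 and 1222 TPM at 6 h through 1214, 731.3 and 828.95 at 12 h to 74.5, 81.2 and 82.5 at 24 h, a 13.5-fold fall (log2 fold change -3.76, SE 0.26, adjusted p = 1.2e-12). The 12 h libraries overlapped those at 6 h and the 24 h libraries lay far below both. CXCL1 reached 313, 379 and 334 TPM at 24 h, a 6.28-fold fall from 6 h (log2 fold change -2.65, SE 0.27, adjusted p = 9.2e-09), and CXCL2 reached 32.2, 63.7 and 57.7 TPM, a 5.22-fold fall (-2.38, SE 0.28, adjusted p = 1.2e-07). CXCL8 reached 11488, 10020 and 11555 TPM, a 2.70-fold fall (-1.43, SE 0.48, adjusted p = 0.039).

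CXCL5 and CXCL6 took the other course in the same libraries. CXCL5 went from 8, 4 and 4 counts at 6 h to 28, 16 and 18 at 12 h and 39, 14 and 21 at 24 h, or from 0.671 ± 0.316 through 4.57 ± 1.88 to 3.75 ± 0.58 TPM (SD, n = 3), a log2 fold change from 6 to 24 h of 2.65 (SE 0.54, adjusted p = 0.00068). CXCL6 went from 19, 6 and 7 counts to 31, 19 and 19 and then 39, 15 and 21, or from 2.14 ± 1.52 through 8.14 ± 3.27 to 6.11 ± 0.90 TPM (log2 fold change from 6 to 24 h 1.73, SE 0.51, adjusted p = 0.021). Both genes had few counts at 6 h and passed the filter only through later libraries, so these p-values are a description. In TPM the 6 h and 24 h libraries did not overlap for either gene. Of all genes, 7.39% lay higher at 24 h without overlap and 14.1% lower. Neither gene passed 12 TPM in H47_Ctrl, where CXCL8 was at 10020 or more after stimulation.

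The same division was seen in the other 3 groups. CXCL1, CXCL2 and CXCL3 were called lower at 24 h than at 6 h in all 4 groups, by 14.4- to 26.4-fold in H47_KO, 8.46- to 12.2-fold in VP64_Ctrl and 3.87- to 11.1-fold in VP64_A, and CXCL5 and CXCL6 were called higher in all 4. In H47_Ctrl and H47_KO the calls of CXCL5 and CXCL6 are a description, since both passed the filter there only through later libraries. CXCL8 fell 5.04-fold in H47_KO (adjusted p = 0.00063) and 2.55-fold in VP64_Ctrl (adjusted p = 0.015). In VP64_A it went from 26035, 20268 and 18136 TPM to 12791, 12185 and 12133, a log2 fold change of -0.75 (SE 0.39) that did not pass the test (adjusted p = 0.23), although the libraries did not overlap, as in 15.3% of all genes in this direction. Of all genes tested, 7.74% were called lower and 6.9% higher in H47_Ctrl, 12.1% lower and 12.1% higher in H47_KO, 9.45% and 8.98% in VP64_Ctrl, and 6.72% and 5.8% in VP64_A. The CXCL8 call in H47_Ctrl was lost with DESeq2 (adjusted p = 0.061) and without any of 5 single libraries. In limma on log2(TPM + 0.1) that call, those of CXCL6 in H47_Ctrl (adjusted p = 0.053) and CXCL8 in VP64_Ctrl (0.13) and that of CXCL2 in VP64_A (0.082) were lost. The CXCL6 calls in H47_Ctrl and H47_KO were lost without any of 4 and any of 3 single libraries, and that of CXCL8 in VP64_Ctrl without either of 2. The CXCL5 call in H47_KO was lost without H47_KO replicate 2 at 6 h (adjusted p = 0.053), and the log2 fold change of CXCL6 there went from 1.64 to 1.00 without replicate 2 at 24 h. Without the libraries that stood apart all these calls held, with log2 fold changes in H47_Ctrl of -2.92 for CXCL1, -2.65 for CXCL2, -4.06 for CXCL3, -1.68 for CXCL8, 2.80 for CXCL5 and 2.14 for CXCL6. In H47_KO they were then -3.77, -3.85, -4.66, -2.06, 2.07 and 1.91 in the same order. In bulk RNA, fewer cells that express a gene and less RNA per cell cannot be told apart.

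**Figure D2:**
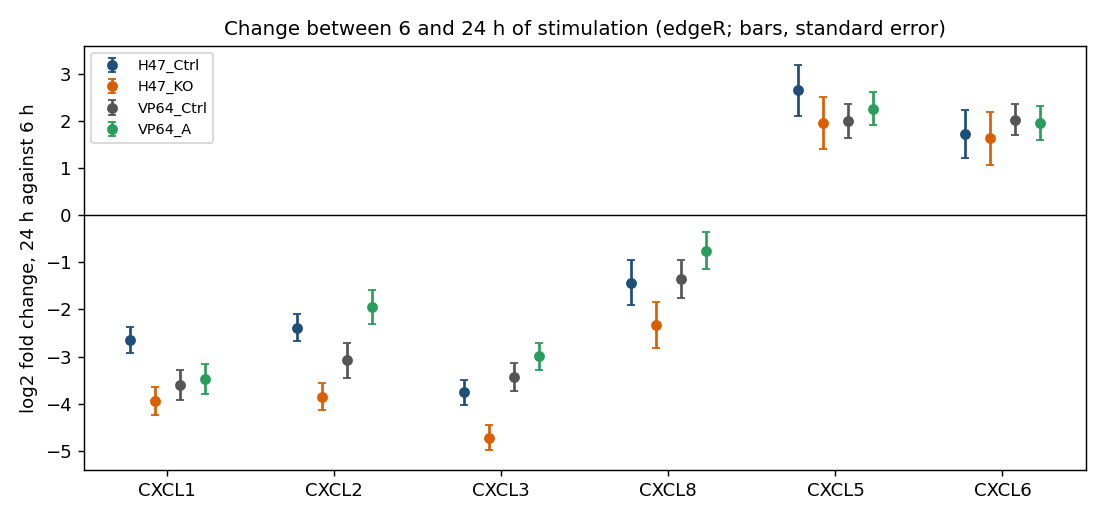
Log2 fold change from 6 to 24 h of stimulation for each chemokine in the 4 groups, from edgeR, with bars of 1 standard error. CXCL1, CXCL2, CXCL3 and CXCL8 lie below 0 and CXCL5 and CXCL6 above 0 in every group, with CXCL8 in VP64_A at -0.75 not past the test.

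The levels in all 4 groups at the later times set these changes in scale. CXCL8 averaged 25233 ± 3149 TPM in H47_Ctrl, 28059 ± 1274 in H47_KO, 27969 ± 553 in VP64_Ctrl and 14707 ± 3722 in VP64_A at 12 h (SD, n = 3 each), and 11021 ± 868, 9279 ± 2458, 17859 ± 3102 and 12370 ± 366 at 24 h in the same order. At 12 h the 3 VP64_A libraries, at 11746 to 18885 TPM, lay below the other 9, at 22706 to 29418, whose groups overlapped. CXCL8 did not pass the test against VP64_Ctrl (log2 fold change -0.85, SE 0.39, adjusted p = 0.30). In TPM 2.66% of all genes tested lay below the other 9 libraries in this way at 12 h, CXCL1 among them (log2 fold change against VP64_Ctrl -0.79, SE 0.29, adjusted p = 0.14). CXCL1 averaged 1815 ± 333, 2035 ± 253, 1352 ± 104 and 744 ± 310 TPM at 12 h and 342 ± 34, 344 ± 53, 303 ± 64 and 143 ± 10 at 24 h in that order. At 24 h the VP64_A libraries, at 133 to 153 TPM, again lay below the other 9, at 237 to 404, as 9.81% of all genes did. CXCL1 did not pass the test against VP64_Ctrl (log2 fold change -0.80, SE 0.30, adjusted p = 0.16).

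CXCL2 averaged 51.2 ± 16.7 TPM in H47_Ctrl, 64.2 ± 17.6 in H47_KO, 178 ± 35 in VP64_Ctrl and 104 ± 12 in VP64_A at 24 h, and CXCL3 averaged 79.4 ± 4.3, 103 ± 20, 434 ± 86 and 168 ± 19 (SD, n = 3 each). For both genes all 6 libraries of the activation arm stood above all 6 of the knockout arm at this time, as did CXCL5, CXCL8 and 1.42% of all genes tested. H47_KO and H47_Ctrl overlapped. This separation of the arms was not tested as such. CXCL5 averaged 3.75 ± 0.58, 4.43 ± 0.42, 10.5 ± 3.3 and 10.1 ± 2.1 TPM at 24 h, so that the arms were apart and the 2 groups within each arm overlapped. CXCL6 averaged 6.11 ± 0.90, 7.94 ± 5.68, 15.4 ± 2.7 and 7.06 ± 1.77 TPM, with VP64_Ctrl the highest group and H47_KO spread from 3.48 to 14.3.

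Loss of GLIS3 was accompanied by higher CXCL2 at 6 h. CXCL2 measured 454, 704 and 586 TPM in H47_KO against 243, 249 and 315 in H47_Ctrl, with no overlap, a 2.70-fold difference (log2 fold change 1.43, SE 0.26, adjusted p = 0.0053). It was 1 of 30 genes called higher at 6 h, 0.274% of those tested. CXCL1 measured 3014, 3973 and 3386 TPM against 1936, 2433 and 2255, and CXCL3 measured 1592, 1922 and 1717 against 870.8, 1165 and 1222. Neither overlapped between the groups. Of all genes tested, 1.64% lay above H47_Ctrl without overlap in TPM, as these 3 members did. At log2 fold changes of 0.95 (SE 0.26, adjusted p = 0.097) and 0.97 (SE 0.23, adjusted p = 0.060) CXCL1 and CXCL3 did not pass the test. CXCL8 was 34772, 32666 and 29235 TPM in H47_KO and 28395, 34326 and 30171 in H47_Ctrl, which overlap (log2 fold change 0.38, SE 0.47, adjusted p = 0.82). CXCL5 and CXCL6, at 2 to 19 counts in these libraries, gave adjusted p = 0.80 and 0.99, and a difference was not detectable at this depth.

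The CXCL2 call at 6 h was lost without H47_Ctrl replicate 1, one of the libraries that stood apart (log2 fold change 1.17, adjusted p = 0.0998), without H47_KO replicate 2 (1.12, adjusted p = 0.11), without all the libraries that stood apart (1.16, adjusted p = 0.0504) and in limma on log2 TPM. Without the libraries that stood apart CXCL1 and CXCL3 gave log2 fold changes of 0.67 (adjusted p = 0.21) and 0.65 (adjusted p = 0.17), whereas with all libraries DESeq2 also called CXCL1 (adjusted p = 0.0037) and CXCL3 (0.0032), beside 5.59% of the genes to which it gave an adjusted p.

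No member was called between H47_KO and H47_Ctrl at 12 or 24 h, where 0.0821% and 0.21% of genes were called in either direction. At 0 h, where 0.301% were, CXCL6 had 0 counts in all 6 libraries and CXCL2, CXCL3 and CXCL5 had 0 to 4 in each, having passed the filter only through stimulated libraries, so a difference was not detectable at this depth. CXCL1, on 0 to 14 counts, and CXCL8 were not called there (adjusted p = 0.35 and 0.48). At 12 h CXCL2 measured 103, 144 and 224 TPM in H47_KO and 296, 217 and 185 in H47_Ctrl (log2 fold change -0.45, SE 0.26, adjusted p = 0.71), so its order was the opposite of that at 6 h, with overlap. CXCL5 at 12 h measured 2.13, 3.13 and 0.60 TPM against 6.73, 3.33 and 3.65, without overlap but with adjusted p = 0.57. CXCL6 measured 1.89, 6.05 and 5.07 TPM against 11.9, 6.29 and 6.2, also without overlap (log2 fold change -0.81, SE 0.47, adjusted p = 0.71). Of all genes, 11.5% lay lower without overlap at this time. At 24 h the log2 fold change of CXCL1 was -0.34 (SE 0.26, adjusted p = 0.69) and that of CXCL8 -0.52 (SE 0.47, adjusted p = 0.74). At an unadjusted p under 0.05 there was 1 member at 0 h (CXCL1), 1 at 12 h (CXCL5) and 0 at 24 h, beside 11.4%, 7.68% and 10% of all genes. DESeq2 called 0 at each of the 3 times.

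Gain of GLIS3 was accompanied by lower CXCL2 and CXCL3. At 6 h CXCL3 measured 1344, 1273 and 1410 TPM in VP64_A against 3026, 3364 and 4124 in VP64_Ctrl, 2.87-fold lower (log2 fold change -1.52, SE 0.27, adjusted p = 0.00040), and CXCL2 measured 346, 361 and 494 against 683, 1136 and 1500, 3.06-fold lower (-1.61, SE 0.35, adjusted p = 0.0035). The groups did not overlap for either gene. They were 2 of 209 genes called lower at 6 h, 1.9% of those tested.

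CXCL1 measured 1527, 1488 and 1749 TPM in VP64_A and 1962, 2804 and 3452 in VP64_Ctrl at 6 h (log2 fold change -0.93, SE 0.29, adjusted p = 0.071), and CXCL8 measured 26035, 20268 and 18136 against 39320, 30827 and 35735 (-0.84, SE 0.39, adjusted p = 0.33). In TPM both were lower in all 3 VP64_A libraries, as were CXCL6 and 4.64% of all genes tested, but neither passed the test. CXCL5 gave 28, 13 and 12 counts in VP64_A and 31, 20 and 1 in VP64_Ctrl, which overlap (log2 fold change 0.02, SE 0.42, adjusted p = 0.99).

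CXCL3 stayed lower in VP64_A at the later times. At 12 h it measured 1067, 633 and 729 TPM against 2011, 1701 and 2164, 2.30-fold lower (log2 fold change -1.2, SE 0.27, adjusted p = 0.0053), and at 24 h 186, 169 and 148 against 419, 527 and 356, 2.12-fold lower (-1.08, SE 0.28, adjusted p = 0.015). The groups did not overlap at either time, nor did those of 6.17% and 29.2% of all genes in this direction. It was the 1 member called at each, where 1.94% and 2.13% of genes were called lower. CXCL2 gave log2 fold changes of -1.16 (adjusted p = 0.054) at 12 h and -0.49 (adjusted p = 0.59) at 24 h. Without VP64_A replicate 1 the 12 h value was -1.88 (adjusted p = 0.00067). CXCL6 at 24 h measured 5.40, 6.87 and 8.92 TPM against 15.6, 18.1 and 12.7, without overlap but with adjusted p = 0.15. At 0 h, where 9.41% of genes were called in either direction, the members other than CXCL8 had 0 to 6 counts a library and passed the filter only through stimulated libraries, so a difference was not detectable at this depth. CXCL8 was not called there (log2 fold change -0.18, SE 0.45, adjusted p = 0.86).

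The CXCL3 call at 6 h held without each single library. All 4 calls in this arm were lost in limma on log2(TPM + 0.1), at -1.41 for CXCL2 and -1.37 for CXCL3 at 6 h (adjusted p = 0.41 and 0.32) and -1.30 and -1.36 for CXCL3 at 12 and 24 h (adjusted p = 0.40 and 0.23), while that fit called 1 other member at 24 h. The CXCL2 call at 6 h was lost without VP64_Ctrl replicate 3 (log2 fold change -1.23, adjusted p = 0.063), that of CXCL3 at 12 h without either of 2 libraries and at 24 h without any of 4.

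**Figure D3:**
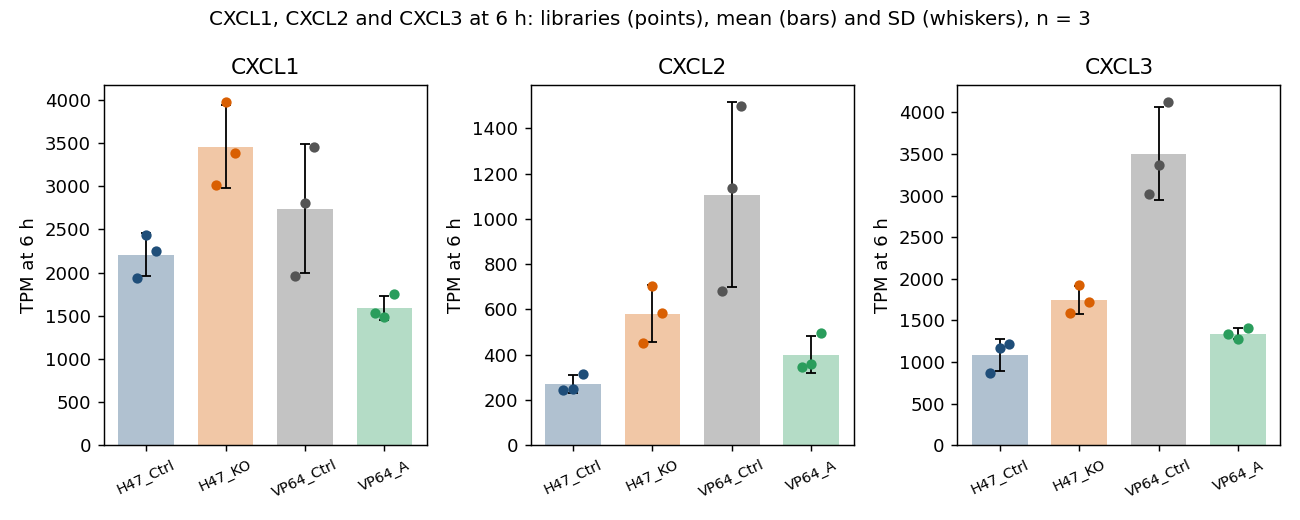
TPM of CXCL1, CXCL2 and CXCL3 in each library of the 4 groups at 6 h, with the mean and SD of 3 libraries. CXCL2 lies at 454 to 704 TPM in H47_KO against 243 to 315 in H47_Ctrl, and at 346 to 494 in VP64_A against 683 to 1500 in VP64_Ctrl.

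Whether the perturbation changed the response itself was tested by interaction terms. For the response from 0 h the difference could not be estimated for CXCL6, which had 0 counts in every 0 h library. CXCL1, CXCL2, CXCL3 and CXCL5 rest on 0 to 14 counts a library at 0 h and passed the filter only through stimulated libraries, so that the lack of a call for them in edgeR or DESeq2 says little. CXCL8 was not called, with a difference at 6 h of -0.64 for loss (SE 0.71, adjusted p = 0.86) and -0.66 for gain (SE 0.60, adjusted p = 0.78). As ratios of summed counts the order of the groups turned without some libraries. Without those that stood apart CXCL8 rose 5274-fold in H47_KO and 4265-fold in H47_Ctrl by 6 h (2181- and 3410-fold with all). Without VP64_A replicate 1 at 0 h it rose 7934-fold in VP64_A (3220-fold with all), against 5178-fold in VP64_Ctrl. For loss of GLIS3 at 24 h CXCL1 and CXCL8 had an unadjusted p under 0.05, as did 5.62% of all genes. Without the libraries that stood apart the CXCL8 ratio from 0 to 24 h in H47_KO went from 419- to 1442-fold, beside 1340-fold in H47_Ctrl. That of CXCL1 in H47_KO went from 133- to 218-fold, beside 560-fold in H47_Ctrl. Of all genes tested, 0.00912%, 0% and 0% were called at 6, 12 and 24 h for loss of GLIS3, and 0.0911%, 0.264% and 0.209% for gain. The change from 6 to 24 h, a comparison added after the values were seen, does not rest on the 0 h libraries. The difference in that log2 fold change, H47_KO minus H47_Ctrl, was -1.47 for CXCL2 (SE 0.38, adjusted p = 0.20) and -1.30 for CXCL1 (SE 0.37, adjusted p = 0.23), and for CXCL2 it was 1.13 in VP64_A minus VP64_Ctrl (SE 0.49, adjusted p = 0.63). Without the libraries that stood apart the knockout-arm differences were -1.2 for CXCL2 and -0.85 for CXCL1 (adjusted p = 0.59 for both). At an unadjusted p under 0.05 there were 3 members for loss and 1 for gain, beside 11.2% and 7.51% of all genes. In edgeR 0 passed the test (0.0456% and 0.137% of genes were called at an adjusted p), whereas DESeq2 called CXCL1 (adjusted p = 0.039) and CXCL2 (0.049) in the knockout arm, beside 0.526% of the genes to which it gave an adjusted p. So in these contrasts edgeR did not show that the effect of either perturbation on a member differed between times. A difference in the change from 6 to 12 h was not tested.

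**Figure D4:**
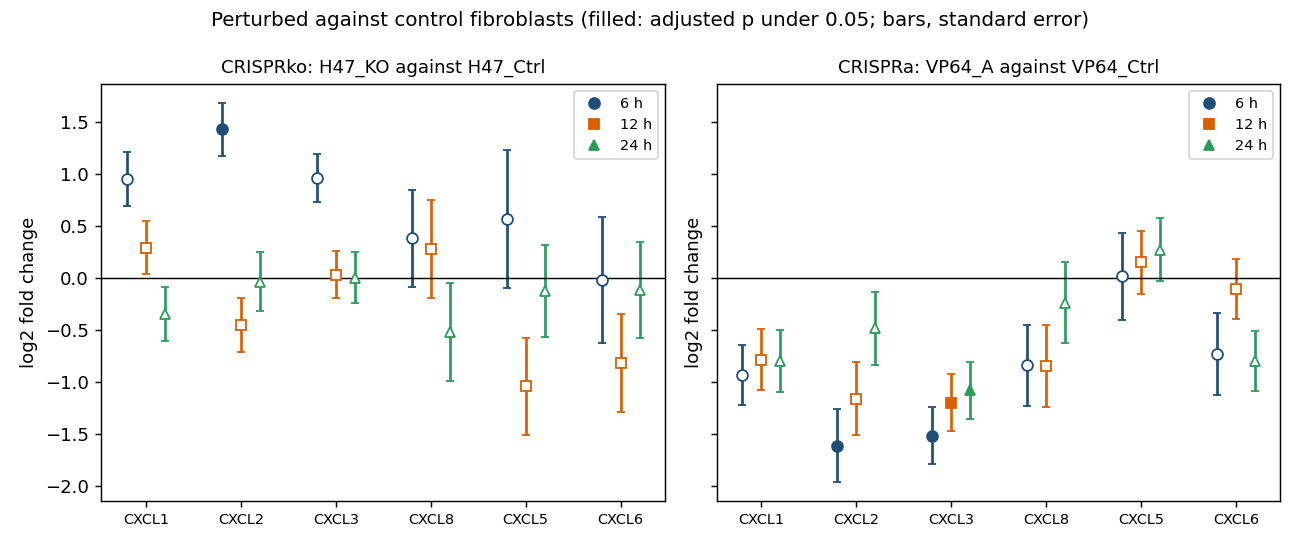
Log2 fold change of each chemokine between perturbed and control cells at 6, 12 and 24 h of stimulation, with bars of 1 standard error and filled symbols for calls at an adjusted p under 0.05, for H47_KO against H47_Ctrl and VP64_A against VP64_Ctrl. The calls are CXCL2 at 6 h in the knockout arm, and CXCL2 at 6 h and CXCL3 at 6, 12 and 24 h in the activation arm.

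The 2 control populations also differed from each other. At 6 h VP64_Ctrl exceeded H47_Ctrl for CXCL2 by 5.18-fold (log2 fold change 2.37, SE 0.35, adjusted p = 3.5e-06) and for CXCL3 by 3.92-fold (1.97, SE 0.27, adjusted p = 1.0e-06), without overlap, as in 2.2% of all genes in this direction. CXCL5 was also called, by 3.83-fold on counts of 31, 20 and 1 against 8, 4 and 4 (adjusted p = 0.018). At 12 h CXCL3 was higher by 2.42-fold (adjusted p = 0.0013), and at 24 h CXCL3, CXCL2 and CXCL5 by 4.94-, 3.21- and 2.49-fold (adjusted p = 5.0e-08, 0.0014 and 0.021). In limma on log2(TPM + 0.1) the CXCL3 calls at 6 and 24 h remained, and the calls of CXCL2 and CXCL5 at 6 h (adjusted p = 0.082 and 0.34), CXCL3 at 12 h (0.28) and CXCL2 and CXCL5 at 24 h (0.13 and 0.18) were lost. The CXCL5 calls were lost without any of 4 single libraries at 6 h and any of 3 at 24 h. Without the libraries that stood apart the log2 fold changes at 6 h were 2.12 for CXCL2 and 1.67 for CXCL3, and that of CXCL5, 2.10, was no longer called (adjusted p = 0.054), while at 12 h CXCL5 was (1.16, adjusted p = 0.047). The share of all genes called higher was 2.04%, 2.23% and 3.34%.

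CXCL1 and CXCL8 were not called between the controls at any time, with log2 fold changes at 6 h of 0.62 (SE 0.29, adjusted p = 0.27) and 0.49 (SE 0.45, adjusted p = 0.66). At 0 h, where 9.58% of genes were called (1094 genes, which fell to 295 without the libraries that stood apart), CXCL5 and CXCL6 had 0 counts in all 6 control libraries and CXCL1, CXCL2 and CXCL3 had 0 to 4 in each, so a difference was not detectable at this depth. CXCL8 was not called there (log2 fold change -0.13, SE 0.52, adjusted p = 0.92). For the response from 0 h to 6 or 24 h, where edgeR called 0.429% and 0.49% of genes, the difference could not be estimated for CXCL5 and CXCL6, and CXCL8 was not called (adjusted p = 0.75 and 0.88). CXCL3, on 0 to 4 counts a library at 0 h, had an unadjusted p under 0.05 for each response, as did 13.6% and 7.83% of all genes. DESeq2 called 1 member for each, beside 3.63% and 0.786% of the genes to which it gave an adjusted p. The arm, the editing protein and the control guide cannot be told apart in this comparison. The level of CXCL2 and CXCL3 in VP64_A at 6 h, 400.5 ± 81.4 and 1342 ± 69 TPM, was above that of H47_Ctrl, 269 ± 39.9 and 1086 ± 188 (SD, n = 3 each), a difference that was not tested.

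The rest of the pathway gives the setting in which the chemokines rose. Their receptors CXCR1 and CXCR2 had 0 counts in all 48 libraries, and none of the 6 receptor genes listed was high enough to test. Of the 11 other CXC chemokines listed, 2 were tested in the knockout arm, and CXCL12, which binds CXCR4 and attracts lymphocytes and stem cells, fell at 6 h in H47_Ctrl (log2 fold change -0.81, SE 0.24, adjusted p = 0.015) and H47_KO (-0.77, SE 0.24, adjusted p = 0.018), where 5.6% and 10.8% of all genes fell. In the activation arm 3 were tested, and CXCL12 did not pass the test there, at -0.42 in VP64_Ctrl (SE 0.18, adjusted p = 0.069) and -0.51 in VP64_A (SE 0.22, adjusted p = 0.12). CXCL10, a lymphocyte attractant, had 0 counts in all 6 libraries at 0 h, 2 in each VP64_Ctrl library and 4 to 7 in VP64_A at 6 h. It passed the filter only through stimulated libraries, so its values are a description.

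Of 17 genes of the IL-1 receptor and its relay, 14 were tested and 5 rose and 1 fell at 6 h in H47_Ctrl, with a median log2 fold change of 0.19, beside 10.3% of all genes higher and 5.6% lower, the shares to set beside each list at this time. IRAK2, a kinase of the receptor complex, rose by 4.80 (SE 0.30) and TAB3, a partner of the kinase TAK1, by 2.94 (SE 0.58), while IRAK4, the kinase at the head of the relay, fell by 2.14 on the log2 scale (SE 0.49). Of 12 NF-kB subunits and inhibitors, all 11 tested rose, with a median of 3.07. They included NFKB1, which encodes the p50 subunit (3.25, SE 0.22), and 2 inhibitors that NF-kB itself induces, NFKBIA (3.39, SE 0.19) and TNFAIP3 (5.67, SE 0.23), as well as NFKBIZ, a nuclear cofactor (4.54, SE 0.22).

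Of 11 factors that act on AU-rich mRNA, 5 rose and 1 fell at 6 h (10.3% and 5.6% of all genes). ZC3H12A, the RNase Regnase-1 that degrades inflammatory transcripts, rose by 6.36 (SE 0.26). MAPKAPK2, the kinase that stabilizes such transcripts downstream of p38, rose by 1.45 (SE 0.48). The next largest log2 fold changes of this list were also upward, 1.26 for ZFP36L1 and 0.93 for RC3H1. ZFP36L2, a decay factor, fell by 0.88 on the log2 scale (SE 0.22). Of 17 other inflammatory products, all 16 tested rose, with a median of 7.46, led by the cytokines CSF2 (11.36, SE 0.45), IL1B (11.18, SE 0.49), LIF (11.14, SE 0.45) and IL6 (10.14, SE 0.44). Genes near the floor before stimulation, IL1B and CSF3 among them, passed the filter through stimulated libraries, so this count is a description. Of 10 TGFβ response genes 6 rose, with a median of 0.85, among them the inhibitory SMAD7 (3.05, SE 0.41) and PMEPA1 (3.00, SE 0.44).

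From 6 to 24 h in H47_Ctrl 13 of the 16 other inflammatory products fell and 2 rose (median -2.79), and 5 of 11 NF-kB genes fell (median -0.64), where 7.74% of all genes fell and 6.9% rose, so most of the products moved with CXCL1, CXCL2, CXCL3 and CXCL8 and against CXCL5 and CXCL6. Between H47_KO and H47_Ctrl at 6 h 1 inflammatory product, the collagenase MMP1, was higher (1.45, SE 0.32, adjusted p = 0.030) and 1 TGFβ response gene, TGFBI, lower, and 0 of 11 NF-kB genes and 0 of 14 IL-1 relay genes passed the test, where 0.274% of all genes were higher and 0.0456% lower.

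In VP64_A against VP64_Ctrl at 6 h the other inflammatory products moved both ways, 7 lower and 3 higher of 16 tested (median -0.85), beside 1.9% of all genes lower and 1.86% higher. CSF2 (-2.29, SE 0.25, adjusted p = 1.1e-07) and IL1B (-1.25, SE 0.30, adjusted p = 0.011) were lower with CXCL2 and CXCL3, while LIF (1.45, SE 0.26, adjusted p = 0.00037) and PTGS2, the prostaglandin synthase (1.42, SE 0.26, adjusted p = 0.00055), were higher. NFKBIZ was the 1 NF-kB gene called (-0.73, SE 0.20, adjusted p = 0.028). CXCL12 was lower too (-3.30, SE 0.22, adjusted p = 1.5e-12). Differences were also called at 0 h, before stimulation. There 2 of the 16 inflammatory products were higher and 4 lower, and 1 of 3 other CXC chemokines was lower. Of all 10980 genes tested, 471 were higher and 562 lower at 0 h.

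Over the means of the 16 conditions (4 groups at 4 times) on the log2 CPM scale, CXCL1, CXCL2, CXCL3 and CXCL8 followed each other with Pearson correlations of 0.97 to 0.99, CXCL5 and CXCL6 with 0.97, and the 2 sets with 0.69 to 0.88. The 10 genes whose pattern was most like the mean of the 6 were IL1B (Pearson correlation 0.990), SLC39A14, BTG3, IER3, NFKBIA, SOD2, IL6, MMP12, FNDC3B and CSF3 (0.979). The conditions share the cytokines and, at 0 h, values near 0 for most members, and the correlations are a description.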

How the data were processed

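RNA-seq libraries were made from mRNA with Nextera XT and sequenced on a NextSeq 500. The submitters' notes and methods name bcl2fastq, FastQC, Trim Galore, SortMeRNA, STAR and Salmon with GRCh38; versions, annotation and strand setting are not given in the sources used here. The authors deposited estimated counts and TPM per gene for all 48 libraries. Of the estimated counts 6.38% were not whole (more than 1e-06 from a whole number) and were rounded; a read shared by near-identical genes is divided by such estimates. Comparisons between groups were tested on counts with edgeR 4.0.16 in R 4.3.3 (quasi-likelihood, TMM, genes kept by filterByExpr with a minimum count of 10 and total of 15), with 1 fit of 8 groups per arm (10962 and 10980 genes) and 1 of both arms (11422) for the controls, and Benjamini-Hochberg adjustment over all genes tested. Standard errors are the log2 fold change divided by the root of F. Levels are TPM. DESeq2 1.42.0 and limma 3.58.1 on log2(TPM + 1) were among the alternatives.

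The members and lists were chosen with earlier results of these data known. Text names the 6 members, the genes of the lists with examples, GLIS3 and IL11, and the 10 genes most like the members. All 48 pairs of libraries within a group differed beyond sampling noise (lowest chi-square per degree of freedom 3.80). Scripts were tested on simulated counts.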

Additional observations from a re-analysis of the deposited data

Results flagged for a closer look

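IL11, the gene behind the reporter and not a chemokine, is given here because its response to the cytokines at 6 and 12 h differed between VP64_A and VP64_Ctrl by the test of the difference itself. The rise from 0 to 6 h was larger in VP64_A by a log2 difference of 2.19 (SE 0.37, adjusted p = 0.019), and that from 0 to 12 h by 1.71 (SE 0.37, adjusted p = 0.033, edgeR), while that from 0 to 24 h, larger by 1.57 (SE 0.38), did not pass the test (adjusted p = 0.083). Both calls were lost without the libraries that stood apart, at 1.74 (SE 0.48, adjusted p = 0.56) and 1.28 (SE 0.48, adjusted p = 0.63). Leaving out single libraries gave 1.93 to 2.38 at 6 h, with the call lost for 5 of 12, and 1.34 to 1.94 at 12 h, with the call lost for 9 of 12, while DESeq2 with all libraries gave adjusted p = 4.6e-05 and 0.0034. At 6 h IL11 measured 160.0, 164.6 and 160.4 TPM in VP64_A and 20.2, 26.1 and 27.4 in VP64_Ctrl. CXCL2 and CXCL3 were lower in the same VP64_A libraries, so IL11 moved the other way from them.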

How the results depend on the processing

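No value changed direction under any alternative among the fold changes and counts that were varied. Between H47_KO and H47_Ctrl the fold changes varied were those of CXCL1, CXCL2 and CXCL3 at 6 h, so those of the other members and times were not covered. In VP64_A against VP64_Ctrl, CXCL5 and CXCL6 were not varied, and between the controls CXCL1, CXCL6 and CXCL8 were not. For the differences in response from 0 h only the number of members called was varied, not the fold changes. Between groups, the order of the CXCL8 ratios from 0 to 6 h did turn without some libraries. All 6 members kept their calls above 0 h in every group, except CXCL5 at 6 h in limma on log2(TPM + 1), which was still higher but lost its call with and without a filter, at 0.72 in H47_Ctrl (adjusted p = 0.14 and 0.16) and 0.70 in H47_KO (adjusted p = 0.061 and 0.079). Most perturbation calls rest on the choice of test and on single libraries, and in each case the cause was not tested. At 6 h the members called in H47_KO against H47_Ctrl, 1 in edgeR, were 3 with DESeq2, with no filter on low counts and at an unadjusted p under 0.05, 0 in each of 3 limma fits on log2 TPM (pseudocounts 1 and 0.1), 0 without the libraries that stood apart (an alternative chosen after seeing the data) and 0 to 1 on leaving out single libraries. At 0 and 12 h an unadjusted p gave 1 each. Over the 22 comparisons between groups 5.62 to 23.2% of all genes had an unadjusted p under 0.05. For VP64_A against VP64_Ctrl at 6 h, 2 became 4 at an unadjusted p, 0 with limma at a pseudocount of 0.1 and 1 to 3 on leaving out single libraries. At 12 h, 1 became 4 at an unadjusted p, 3 with no filter, 2 with only the libraries compared or limma at a pseudocount of 1, 0 at 0.1, and 0 to 3 on leaving out single libraries. At 24 h, 1 became 3 at an unadjusted p and in limma at a pseudocount of 1 with or without a filter, 2 with no filter or only the libraries compared, and 0 to 1 on leaving out single libraries.

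For VP64_Ctrl against H47_Ctrl limma at a pseudocount of 0.1 called 1 member at 0 h (0 in edgeR), 1 at 6 h (3), 0 at 12 h (1) and 1 at 24 h (3). Over all genes that fit called 280 at 12 h and 408 at 24 h. At 0 h the members other than CXCL8 had almost no counts in these libraries, so a call of one there says little. At 12 h there were 3 at an unadjusted p, with no filter and with only the libraries compared, and 2 with DESeq2 and without the libraries that stood apart. For the responses from 0 h, an unadjusted p gave 2 in H47_KO at 24 h, and in VP64_Ctrl against H47_Ctrl 1 member at 6 and 24 h passed at an unadjusted p, with DESeq2, with no filter and in all 3 limma fits, at 24 h also with only the libraries compared. The change from 6 to 24 h differed for 3 members at an unadjusted p and 2 with DESeq2 and with no filter in the knockout arm, and for 1 at an unadjusted p and 1 with no filter in the activation arm. Same-numbered libraries of an arm deviated together little (median correlation 0.0086 and 0.0084 in the knockout and activation arms, with 6 and 7 of 84 pairs over 0.1). Of 24 libraries per arm, 10 and 13 went best with libraries of their own number among the 3 numbers. The main fit did not pair by number, and a weak pairing is not excluded. With the replicate block 2 members in place of 1 were called at 12 h in VP64_A against VP64_Ctrl and in VP64_Ctrl against H47_Ctrl, and no other member count changed by more than 1.5 times.

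Over all genes, those called between H47_KO and H47_Ctrl at 6 h numbered 35 in edgeR, 5 in limma on log2(TPM + 1) and 181 in DESeq2, and those between VP64_A and VP64_Ctrl at 0 h fell from 1033 to 205 without the libraries that stood apart. Scaling by TPM in place of TMM moved the median log2 fold change of all genes by -0.32 at 6 h and 0.30 at 24 h in H47_KO against H47_Ctrl, and the CXCL2 value at 6 h from 1.43 to 1.09. CXCL5 and CXCL6, at 0 to 110 counts a library, limit what can be seen of them at this depth.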
